A study of Sus scrofa with 48 samples.

Results

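The 9 genes of hexose uptake and glycolysis described here were measured in the liver and fat of pigs: the carriers SLC2A1 and SLC2A5, the hexokinase HK1, the isomerase GPI, the phosphofructokinase subunits PFKL and PFKP, the kinase PGK1, the enolase ENO1 and the pyruvate kinase PKM. They were taken by gene symbol, as every probe set (a group of short probes against 1 transcript) that the array annotation gives to 1 of these symbols. That made 10 probe sets for 9 genes, of 23999 probe sets tested and 6765 genes with 1 symbol. PKM had 2 probe sets, and the brighter one stands for it unless the other is named. RNA was measured on 48 Affymetrix arrays from 24 Yorkshire gilts aged 6 months, with 1 liver array and 1 fat array per gilt. The labels number the arrays of each group but do not say that a number marks the same gilt in both tissues, so "gilt 1" below names an array by its group and number. All gilts came from a line bred for low residual feed intake, so no group without that selection was compared. Gilts were homozygous for N298 or for the wildtype D298 of MC4R, a melanocortin receptor of the brain that curbs appetite, and were fasted or fed ad libitum for 3 days. The 4 groups in each tissue were therefore fasted N298, fasted D298, fed N298 and fed D298 gilts, with 6 gilts in each. The depot of the fat is not given in the sources used here.

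Hexoses enter cells through carriers of the SLC2A family. SLC2A1 is the widespread carrier of glucose, and SLC2A5 is a carrier of fructose. Hexokinases phosphorylate the sugar and so keep it in the cell, GPI turns glucose 6-phosphate into fructose 6-phosphate, and phosphofructokinase, built from liver (PFKL), platelet (PFKP) or muscle (PFKM) type subunits, makes the step that commits it to glycolysis. PGK1 yields ATP further down, ENO1 forms phosphoenolpyruvate, and PKM makes pyruvate. In fat, glycolysis feeds the synthesis of fatty acids and of the glycerol backbone of triglycerides. The liver also runs the pathway backwards as gluconeogenesis, in which GPI, PGK1 and enolase work in reverse while hexokinase, phosphofructokinase and pyruvate kinase are bypassed.

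Signals are given as the authors deposited them, on a linear scale on which the mean of every array without its lowest and highest 2% of values is 500. Effects are log2 differences from a linear model over the 24 arrays of a tissue, with their SE, and a change was called where its p, adjusted over all probe sets, was under 0.05. The labelled tissues carried their markers: all 11 hepatocyte markers measured were lower in fat than in liver, and all 7 adipocyte markers were higher. The fat arrays differed widely in muscle RNA, since the summed signal of 9 skeletal muscle markers ran from 280.0 to 115893.9 in fasted fat and from 355.0 to 75315.2 in fed fat. Endothelial markers moved with fasting in fat, where 6 of 9 measured rose and their summed signal was 15504.4 to 26372.3 in fasted gilts against 11415.4 to 17600.0 in fed gilts. Of 5 fibroblast markers measured 2 fell with fasting in fat, the collagen COL1A2 (-1.02, adjusted p = 0.000564) and the proteoglycan LUM (-1.24, adjusted p = 1.94e-09), and the summed signal of the 5 was 21606.0 to 40332.3 in fasted fat against 30148.5 to 47736.8 in fed fat. The fat array of fed D298 gilt 1 stood apart. Over the 641 probe sets that differed at least 2-fold with fasting in fat, it lay at a median of 0.479 of the way from the fed mean (0) to the fasted mean (1), where the fasted arrays lay between 0.933 and 1.08 and the other 11 fed arrays between -0.215 and 0.157. Its muscle marker sum was 37326.9, within the range of the other arrays, which is too wide to tell much. Its lymphocyte marker sum of 416.1 was the lowest of the fed fats (highest 1239.3). Its fibroblast marker sum of 46644.4 was near their highest of 47736.8. Its sums for the other marker lists lay inside the ranges of fed fat. Leaving it out ended no call of the 9 genes in the comparisons below and added 1, that of ENO1 between the tissues in fed gilts. Log2 changes and differences that it moved most are given with and without it, and correlations only with it.

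In fat, 3 days of fasting moved all 9 genes: 7 fell and 2 rose. The carriers SLC2A5 and SLC2A1 and the first kinase HK1 fell most, ENO1 and PGK1 followed, and PFKL and GPI fell less, while PKM and PFKP rose slightly. Of all probe sets, 25.2% were called in fat, 10.1% as lower and 15.1% as higher. Of the 6765 genes with 1 symbol, each by its brightest probe set as the 9 are, 34.2% were called, 18.9% as lower and 15.3% as higher. The median log2 change of the 9 genes was -0.97, beside 0.08 over all probe sets. In such bulk tissue, fewer cells of a type and less RNA per cell cannot be told apart.

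SLC2A5 had a signal of 130.0 at the lowest, 273.4 at the median and 551.5 at the highest in the 12 fasted fats, against 183.0, 1513.5 and 2737.2 in the 12 fed fats. The groups overlapped through the array of fed D298 gilt 1 alone, which held the 183.0; the other 11 fed fats lay at 1086.8 or more. It fell by 2.25 ± 0.31 on the log2 scale (SE, adjusted p = 1.57e-05), a 4.76-fold lower signal. Without that array the log2 change was -2.52 ± 0.22 (adjusted p = 6.35e-08).

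SLC2A1 had 153.0 at the lowest, 319.9 at the median and 391.0 at the highest in fasted fat, against 534.7, 690.0 and 792.0 in fed fat. It was the only 1 of the 9 genes whose 12 fasted and 12 fed arrays did not overlap, a separation found for 1.69% of all probe sets. Its log2 change was -1.18 ± 0.11 (adjusted p = 2.24e-07), or 2.26-fold lower in fasted fat. On the array of fed D298 gilt 1 its signal of 534.7 was the lowest of the fed fats and above all fasted ones.

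HK1 had 1150.7 at the lowest, 1567.5 at the median and 2135.4 at the highest in fasted fat, against 2018.1, 3969.6 and 5275.6 in fed fat. In 11 of 12 fasted fats the signal was below every fed fat, and the lowest fed value was again that of D298 gilt 1. The log2 change was -1.28 ± 0.12 (adjusted p = 1.97e-07) and -1.36 ± 0.11 without that array.

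GPI, the next enzyme, had 2126.4, 2776.8 and 3575.0 in fasted fat, against 2938.3, 3547.1 and 5159.6 in fed fat (lowest, median and highest). The groups overlapped, with 7 of 12 fasted fats below all fed ones. It fell by 0.36 ± 0.10 on the log2 scale (adjusted p = 0.0108), the smallest of the 7 falls. Without replicate 3 the log2 change of GPI was -0.27 and no longer called (adjusted p = 0.0558).

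The phosphofructokinase subunits went opposite ways in fat. PFKL had 373.8, 476.9 and 659.6 in fasted fat, against 616.5, 753.1 and 1067.0 in fed fat, with 10 of 12 fasted fats below all fed ones. PFKP had 312.4, 386.5 and 592.4 in fasted fat, against 229.9, 330.9 and 430.3 in fed fat, with 3 of 12 fasted fats above all fed ones. The log2 change of PFKL was -0.64 ± 0.08 (adjusted p = 6.8e-06). That of PFKP was 0.29 ± 0.09 (adjusted p = 0.0256), and its call was lost after quantile normalization (0.22, adjusted p = 0.0997), after centring each array on its median (0.21, adjusted p = 0.156) and without replicate 4, 5 or 6 (0.28 to 0.30, adjusted p = 0.0524 to 0.065).

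Of the lower enzymes, PGK1 had 3225.6 at the lowest, 4384.7 at the median and 6901.7 at the highest in fasted fat, against 5474.0, 8834.5 and 14206.6 in fed fat. ENO1 had 3128.2, 4188.0 and 5405.8 in fasted fat, against 5115.7, 8634.4 and 10328.2 in fed fat. Both groups overlapped only through fed D298 gilt 1, which held the 5474.0 and the 5115.7. The log2 change was -0.97 ± 0.11 for PGK1 (adjusted p = 1.58e-06) and -1.05 ± 0.11 for ENO1 (adjusted p = 4.02e-07). Without that array it was -1.01 ± 0.11 for PGK1 and -1.13 ± 0.08 for ENO1. There, SLC2A1, SLC2A5, HK1, PGK1 and ENO1, 5 of the 9 genes, had every fasted fat below every fed fat, as against 2.96% of all probe sets that did not overlap in either direction.

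PKM, the last step, had 529.1, 589.1 and 737.1 in fasted fat, against 395.1, 497.8 and 566.4 in fed fat, and 8 of 12 fasted fats lay above all fed ones. It rose by 0.28 ± 0.06 on the log2 scale (adjusted p = 0.0022), 1.21-fold. The dimmer PKM probe set, whose mean signal was at the 31.6th percentile of all probe sets in fat, gave 0.25 ± 0.22 and was not called (adjusted p = 0.447).

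**Figure D1:**
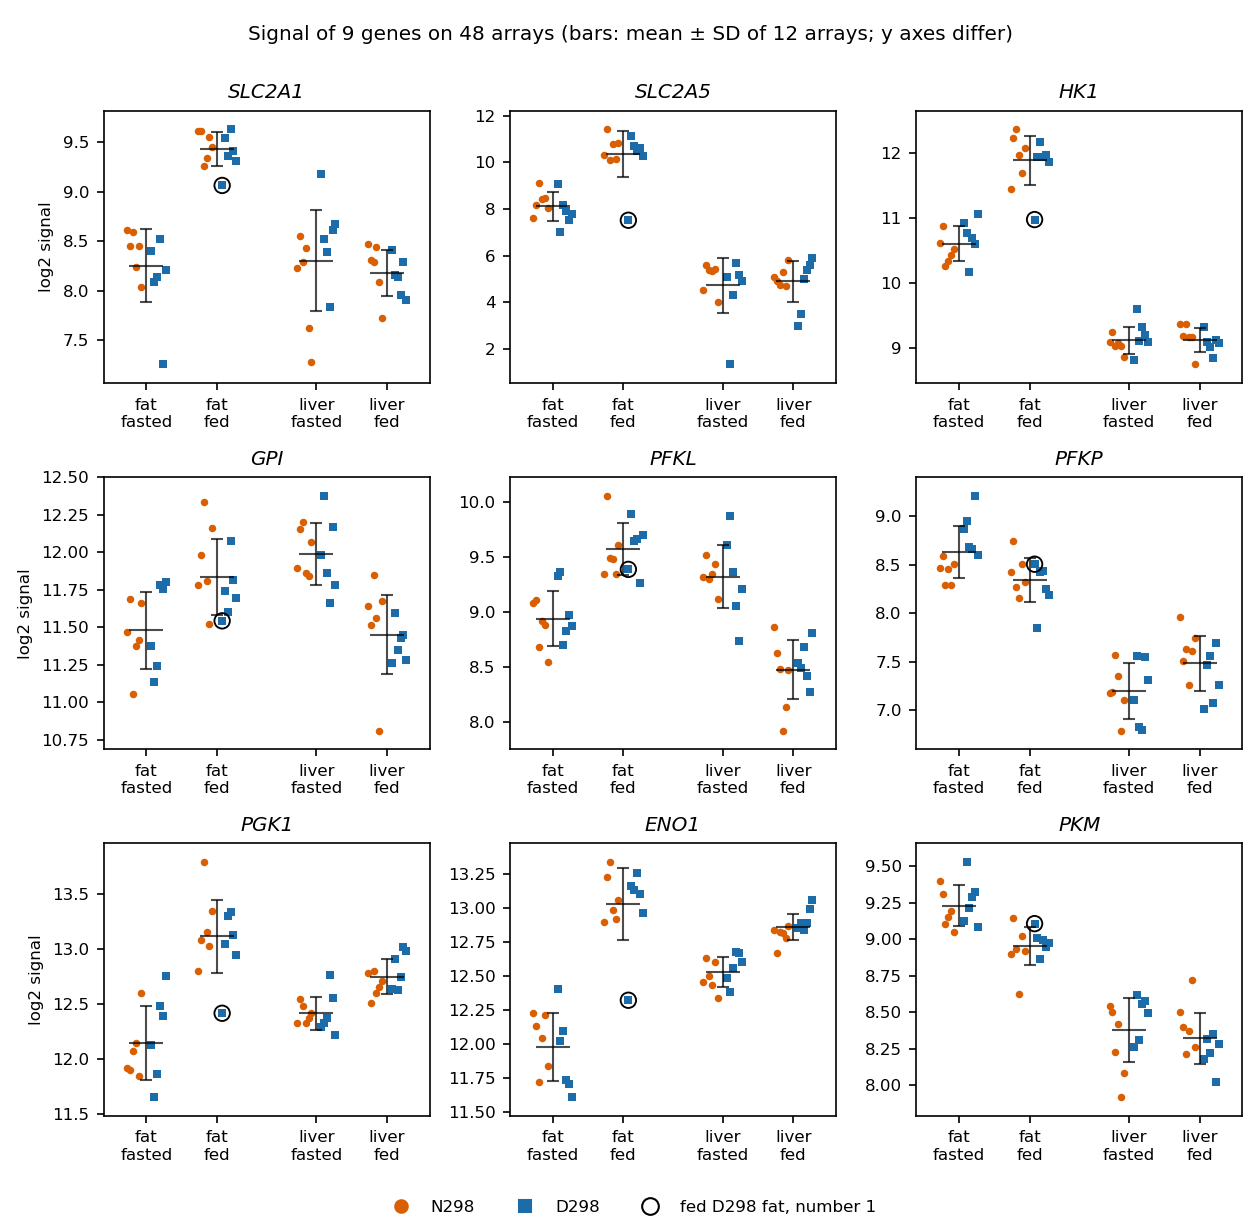
Log2 signal (y axis, its range set for each gene) of the 9 genes in fasted and fed fat and in fasted and fed liver; points are arrays, circles N298 and squares D298, bars the mean ± SD of 12 arrays, and the ring marks the fat array of fed D298 gilt 1. In fat the fasted arrays of SLC2A1 (153.0 to 391.0 before log2) lie below all fed ones (534.7 to 792.0), and the ringed array lies among or near the fasted fats for SLC2A5, HK1, PGK1 and ENO1.

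The model was also fitted with the mean log2 signal of the endothelial markers, which rose in fasted fat, as a covariate. There SLC2A5 (-2.37, adjusted p = 0.0116), SLC2A1 (-1.28), HK1 (-1.14), ENO1 (-1.04), PGK1 (-0.85) and PKM (0.36, adjusted p = 0.0477) kept their calls. PFKL (-0.43, adjusted p = 0.0544), GPI (-0.33, adjusted p = 0.318) and PFKP (0.45, adjusted p = 0.0986) lost theirs, while the number of probe sets called fell to 1338, against 6048 without the covariate. With the mean of the skeletal muscle markers as a covariate all 9 kept their calls, and each log2 change stayed within 0.02 of its value without it. None of these markers was called with fasting in fat (median log2 change 0.022), so this covariate could hardly move the log2 changes. With the mean of the fibroblast markers as a covariate, SLC2A5 (-2.71), HK1 (-1.65), SLC2A1 (-1.56), ENO1 (-1.34), PGK1 (-1.25) and PFKL (-0.75) kept their calls and 3634 probe sets were called. GPI (-0.50, adjusted p = 0.0616), PFKP (0.35, adjusted p = 0.179) and PKM (0.19, adjusted p = 0.271) lost theirs. Endothelial and fibroblast markers themselves moved with fasting, so calls kept or lost with these covariates cannot separate the mix of cells from feeding. The part that endothelial cells or fibroblasts have in these results was not tested. The GAPDH control ratio of RNA quality (log2 of the 3′ over the 5′ signal) overlapped widely, from 0.135 to 1.88 in fasted fat and from 0.272 to 1.7 in fed fat.

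In liver, fasting moved 4 of the 9 genes, and in both directions: PFKL and GPI rose, and ENO1 and PGK1 fell. Of all probe sets 4.47% were called in liver, 2.27% as higher and 2.20% as lower. Of the genes with 1 symbol 7.2% were called, 4.09% as higher and 3.1% as lower. The carriers SLC2A1 and SLC2A5, HK1, PFKP and PKM did not pass. The median log2 change of the 9 was -0.001, beside -0.04 over all probe sets.

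PFKL, the phosphofructokinase subunit of liver type, had 426.6 at the lowest, 644.4 at the median and 939.4 at the highest in fasted liver, against 242.4, 358.3 and 466.4 in fed liver. In 11 of 12 fasted livers it was above every fed liver. It rose by 0.85 ± 0.10 on the log2 scale (adjusted p = 9.14e-06), 1.80-fold. GPI had 3244.5, 3930.7 and 5316.4 in fasted liver, against 1795.4, 2862.7 and 3685.0 in fed liver, with 9 of 12 fasted livers above all fed ones. It rose by 0.54 ± 0.09 (adjusted p = 0.00105), 1.45-fold.

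ENO1 had 5175.0, 5904.4 and 6529.1 in fasted liver, against 6496.0, 7354.6 and 8502.6 in fed liver. In 10 of 12 fasted livers it was below all fed ones. Its log2 change was -0.33 ± 0.05 (adjusted p = 0.000573). PGK1 had 4768.7, 5304.3 and 6984.4 in fasted liver, against 5850.5, 6797.1 and 8293.8 in fed liver, with 9 of 12 fasted livers below all fed ones. Its log2 change was -0.33 ± 0.07 (adjusted p = 0.00675), and -0.28 (adjusted p = 0.0581) once each array was centred on its median. None of the 9 genes separated the 12 fasted from the 12 fed livers without overlap, which 0.454% of all probe sets did.

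Among the genes that did not pass in liver, HK1 had 450.1, 546.1 and 776.6 in fasted livers, against 432.3, 569.1 and 662.4 in fed livers. Its log2 change of -0.001 had a 95% interval of -0.18 to 0.18. SLC2A1 (0.12 ± 0.13, adjusted p = 0.717) and PKM (0.06 ± 0.09, adjusted p = 0.816) likewise showed no difference beyond the spread of the arrays, and PFKP gave -0.29 ± 0.13 (adjusted p = 0.271). SLC2A5 was dim in liver, at the 23.5th percentile of all probe sets, with 2.5 to 51.0 in fasted and 7.9 to 60.2 in fed livers, so that a change there could hardly be measured (95% interval -1.01 to 0.65). The dimmer PKM probe set, at the 26.7th percentile in liver, gave -1.003 ± 0.29 (adjusted p = 0.0508), a direction that the brighter one did not show, and it passed in 4 alternative settings. Detection calls were not analysed here, so no gene is called absent.

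The response to fasting was then compared between the tissues with all 48 arrays in 1 model. It differed for 8 of the 9 genes, where 16.4% of all probe sets and 24.2% of the genes with 1 symbol were called. Of the 9, 7 changed less upwards or more downwards in fat than in liver. This was so for 7.35% of all probe sets and 15.2% of the genes with 1 symbol. PFKP went the other way, as did 9.03% of all probe sets and 9.06% of the genes with 1 symbol. The widest difference relative to its error was that of PFKL, -1.48 ± 0.12 (adjusted p = 5.84e-11), which fell in fasted fat and rose in fasted liver. GPI also moved in opposite directions, with a difference of -0.90 ± 0.14 (adjusted p = 6.61e-06).

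ENO1 and PGK1 fell in both tissues, by more in fat: the differences were -0.72 ± 0.12 (adjusted p = 2.24e-05) and -0.64 ± 0.13 (adjusted p = 0.000454). SLC2A1 (-1.30 ± 0.18), HK1 (-1.28 ± 0.15) and SLC2A5 (-2.07 ± 0.49, adjusted p = 0.0022) fell in fat and were not called in liver, and the difference itself was called for each. Without the fat array of fed D298 gilt 1 the differences were -1.35 for SLC2A1, -1.36 for HK1, -2.33 for SLC2A5, -0.80 for ENO1 and -0.68 for PGK1. That of SLC2A5 rests on a dim liver signal, so its size is uncertain. PFKP, which rose in fat and gave an uncalled -0.29 in liver, differed by 0.58 ± 0.15 (adjusted p = 0.00626). Median-centring of the arrays ended that call (0.44, adjusted p = 0.0624). For PKM the difference of 0.22 ± 0.10 did not pass (adjusted p = 0.132, 95% interval 0.02 to 0.42). Its dimmer probe set gave 1.26 ± 0.34 (adjusted p = 0.00808), which shrank to 0.69 with 32 added to each signal before log2 and was not called without replicate 4 (1.06, adjusted p = 0.0577).

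**Figure D2:**
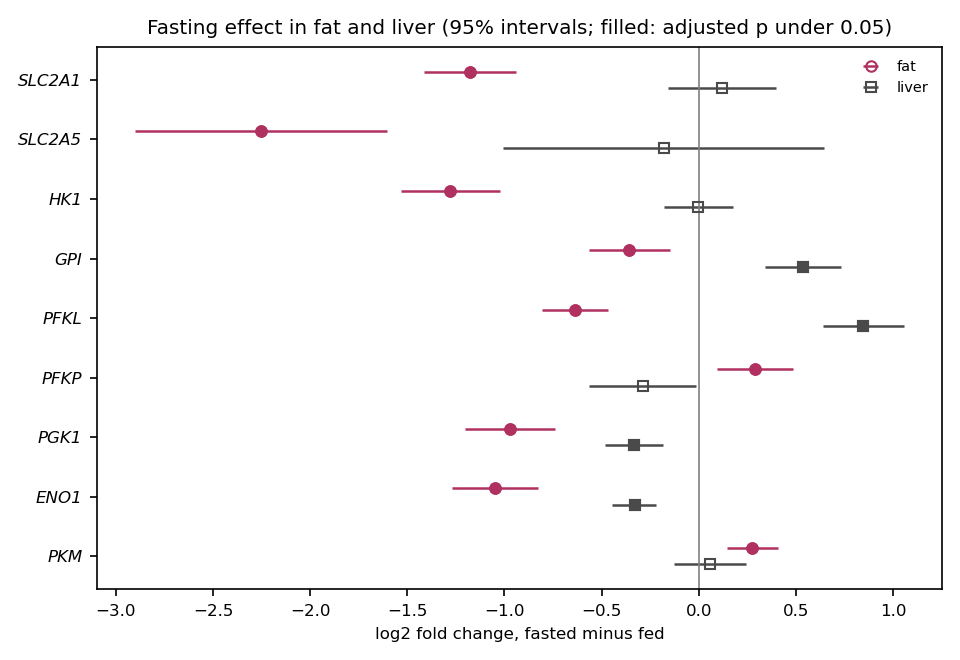
Log2 fold change, fasted minus fed (x axis), with 95% intervals for the 9 genes in fat (circles) and liver (squares); filled symbols have an adjusted p under 0.05. PFKL and GPI lie on opposite sides of 0 in the 2 tissues (-0.64 and -0.36 in fat, 0.85 and 0.54 in liver), and SLC2A5 shows the largest of these falls in fat (-2.25).

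Fat and liver were then compared directly within each feeding state. In fasted gilts 4 of the 9 genes were higher in fat than in liver and 4 were lower, beside 44.4% and 22.2% of all probe sets (66.6% in either direction). Of the genes with 1 symbol 42.5% were higher and 32.2% lower (74.7% in either direction). In fed gilts 8 of the 9 were higher in fat and none was lower, beside 40.2% and 22.1% of all probe sets (62.4% in either direction). Of the genes with 1 symbol 43.8% were higher and 29.2% lower there (73.0% in either direction). Arrays of both tissues were scaled to 1 level, so these differences are relative to that level. The median of all probe sets was itself 0.32 higher in fat in fasted gilts and 0.21 higher in fed gilts on the log2 scale.

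SLC2A5, HK1, PFKP and PKM were higher in fat in both feeding states. For SLC2A5 the log2 difference, fat minus liver, was 3.39 ± 0.34 in fasted gilts and 5.46 ± 0.34 in fed gilts, and 5.72 in fed gilts without the fat array of D298 gilt 1. Its liver signals were dim, so these sizes are uncertain: with 32 added to each signal before log2 they were 2.32 and 4.4. For HK1 it was 1.48 ± 0.11 in fasted and 2.76 ± 0.11 in fed gilts. PFKP and PKM differed more in fasted gilts (1.44 and 0.85) than in fed gilts (0.86 and 0.63). GPI, PFKL and PGK1 were lower in fat than in liver in fasted gilts (-0.51, -0.38 and -0.27, the last turning positive after quantile normalization) and higher in fat in fed gilts (0.39, 1.10 and 0.37). For SLC2A1 no difference was called in fasted gilts (-0.05 ± 0.12, adjusted p = 0.726), and it was 1.245 ± 0.12 higher in fat in fed gilts.

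The scaling decided some of these calls. After quantile normalization PGK1 in fasted gilts turned to 0.13 (adjusted p = 0.185) and ENO1 lost its call there (-0.17, adjusted p = 0.0846), and without replicate 2 PGK1 lost its call (-0.19, adjusted p = 0.0963). Median-centring left GPI (0.10) and PGK1 (0.08) uncalled in fed gilts, and it made SLC2A1 lower in fat in fasted gilts (-0.49, adjusted p = 0.000864). ENO1 was -0.55 ± 0.08 in fasted gilts, and in fed gilts its 0.17 ± 0.08 was not called (adjusted p = 0.0737). The value in fed gilts ran from -0.12 after median-centring (adjusted p = 0.264) to 0.56 after quantile normalization (adjusted p = 3.52e-07), was called in 5 of 15 alternatives, and was 0.25 without the fat array of D298 gilt 1 (adjusted p = 0.0015), so no direction is stated for it. Fat and liver arrays did not overlap for SLC2A5, HK1, PFKP and PKM in fasted gilts and for SLC2A1, SLC2A5, HK1 and PFKL in fed gilts, 4 of 9 each, beside 27.5% and 24.0% of all probe sets.

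**Figure D3:**
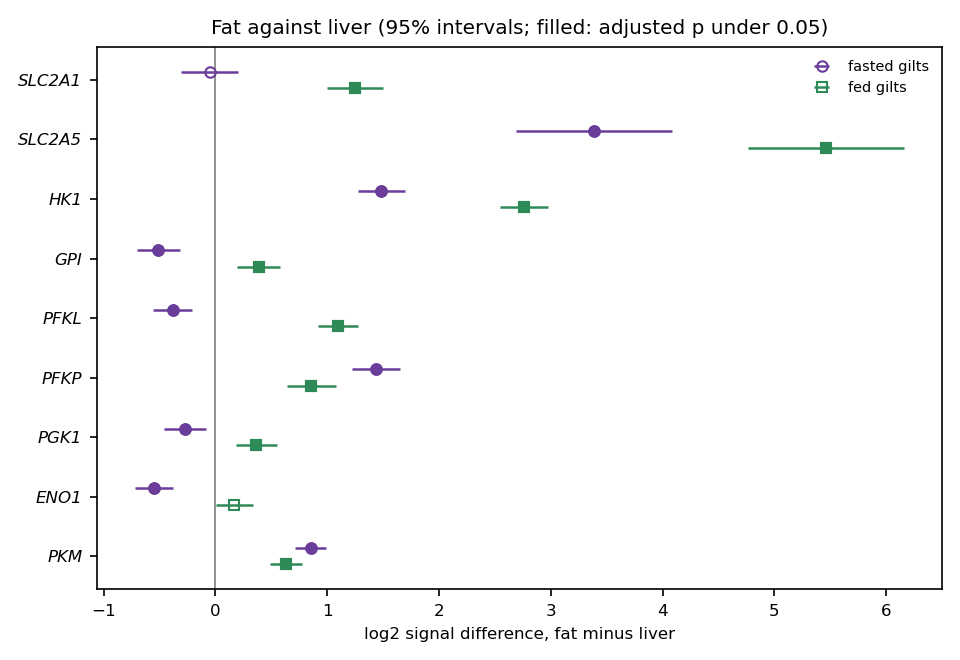
Log2 signal difference, fat minus liver (x axis), with 95% intervals in fasted gilts (circles) and fed gilts (squares); filled symbols have an adjusted p under 0.05. In fed gilts the 9 genes lie between 0.17 and 5.46. In fasted gilts GPI, PFKL, PGK1 and ENO1 are called below 0 (-0.27 to -0.55), PGK1 not after quantile normalization, and the uncalled SLC2A1 lies at -0.05. The 0.17 of ENO1 in fed gilts turned negative after median-centring.

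The MC4R genotype moved none of the 9 genes in either tissue, and neither did its interaction with fasting. No probe set at all was called by limma for either contrast (0.00% in fat and in liver), while 1321 and 1212 probe sets had an unadjusted p under 0.05 for genotype in fat and liver and 1368 and 1390 for the interaction. Of the 9 genes none had an unadjusted p under 0.05 for genotype over both feeding states. Within fasted gilts 1 did in each tissue, PFKP in fat (-0.39 ± 0.13, unadjusted p = 0.00756, adjusted p = 0.514) and SLC2A1 in liver (-0.47 ± 0.19, unadjusted p = 0.0223, adjusted p = 0.852), and within fed gilts none did. The N298 minus D298 log2 difference in fat ran from -0.13 for PFKP to 0.43 for SLC2A5, which was 0.16 ± 0.22 without the fat array of fed D298 gilt 1, and in liver from -0.19 for SLC2A1 to 0.49 for SLC2A5. The intervals bound what could have been missed: in fat that of PKM was -0.19 to 0.07 and that of HK1 -0.27 to 0.24, but that of SLC2A5 reached from -0.22 to 1.07. The missed calls do not show that the genotypes were alike.

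Of the 7 falls in fat, 6 were called in each genotype taken alone. That of GPI was called in N298 fat (-0.49, adjusted p = 0.022) and not in D298 fat (-0.23, adjusted p = 0.337). Of all probe sets 15.5% were called in N298 and 12.6% in D298 fat, and of the genes with 1 symbol 22.3% and 19.1%. In N298 fat 7 of the 9 fell and 1 rose, beside 6.43% and 9.07% of all probe sets. Of the genes with 1 symbol 12.8% fell and 9.53% rose there. In D298 fat 6 of the 9 fell and 2 rose, beside 6.08% and 6.57% of all probe sets. Of the genes with 1 symbol 11.7% fell and 7.36% rose there. For SLC2A5 the log2 change was -2.30 ± 0.44 in N298 and -2.21 ± 0.44 in D298 fat, and in D298 fat it was -2.74 ± 0.32 without the fat array of fed D298 gilt 1. The interaction, N298 minus D298, was -0.09 with that array and 0.45 ± 0.44 without it (adjusted p = 0.88), so its sign rests on 1 array. For ENO1 the change with fasting was -1.04 ± 0.15 in N298 and -1.06 ± 0.15 in D298 fat, and for HK1 -1.45 ± 0.17 and -1.11 ± 0.17 in the same order of genotypes. Without that array the D298 values were -1.23 ± 0.12 for ENO1 and -1.26 ± 0.16 for HK1, and again 6 genes fell and 2 rose in D298 fat. In liver 1.48% of probe sets were called in N298 and 1.63% in D298 gilts, and 2.47% and 2.78% of the genes with 1 symbol. PFKL rose in both (0.92 ± 0.14 in N298 and 0.77 ± 0.14 in D298), whereas GPI (0.50 and 0.58), PGK1 (-0.27 and -0.40) and ENO1 (-0.30 and -0.36) were called in D298 livers and just missed or missed the threshold in N298 livers (adjusted p = 0.0673, 0.238 and 0.0508), with no interaction called.

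PFKP in fat was the member with the smallest p for an interaction. It had 312.4, 352.2 and 386.3 in fasted N298 fat (lowest, median and highest) and 386.8, 439.9 and 592.4 in fasted D298 fat, against 284.5, 330.9 and 430.3 in fed N298 fat and 229.9, 324.2 and 363.3 in fed D298 fat. All 6 fasted D298 fats lay above all fed D298 fats and, narrowly, above all fasted N298 fats, whereas fasted and fed N298 fats overlapped. The share of all probe sets that separate in groups of 6 is not given here. As PFKP was picked by its p, these ranges describe the same values and add no weight to it. The log2 change with fasting was 0.03 ± 0.13 in N298 fat (adjusted p = 0.919) and 0.55 ± 0.13 in D298 fat (adjusted p = 0.00798). The interaction of -0.52 ± 0.19 had an unadjusted p of 0.0114 and an adjusted p of 0.814, so a difference between the genotypes was not established over all probe sets.

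**Figure D4:**
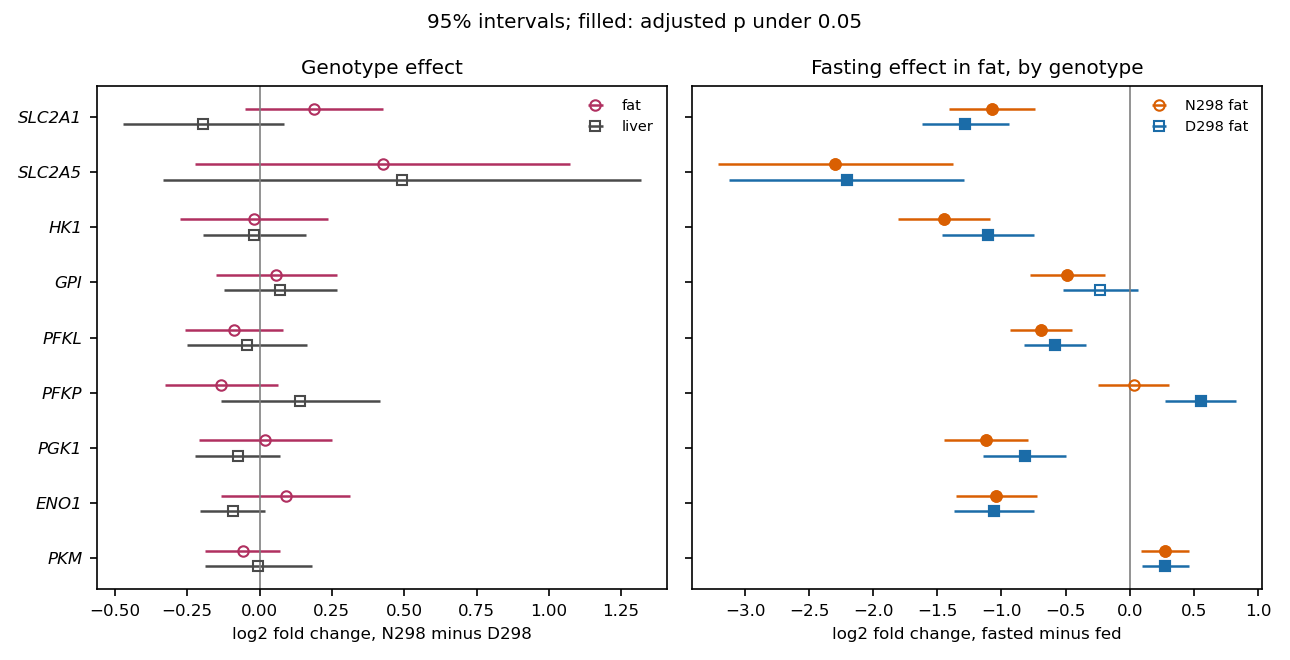
Left, N298 minus D298 log2 differences over both feeding states in fat (circles) and liver (squares); right, fasting effects (log2 fold change, fasted minus fed) in N298 fat (circles) and D298 fat (squares), with 95% intervals and filled symbols for an adjusted p under 0.05. No genotype effect is filled, and PFKP shows 0.03 in N298 and 0.55 in D298 fat.

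Ordered by their mean log2 signal, the 8 groups fell into different series for different genes. For SLC2A5 the 4 fat groups came first, fed N298 at 10.60 ± 0.51 and fed D298 at 10.13 ± 1.31 (SD, n = 6), then fasted N298 at 8.30 ± 0.51 and fasted D298 at 7.92 ± 0.69, and the 4 liver groups followed between 5.08 and 4.41. Only the step between fasted D298 fat and the highest liver group exceeded the ranges of both neighbours' arrays, given the low array of fed D298 gilt 1. Without it fed D298 fat came first at 10.65 ± 0.32 (n = 5), and the step between fed N298 and fasted N298 fat exceeded the ranges too. For GPI the order began with fasted liver, at 12.00 ± 0.16 in N298 and 11.97 ± 0.26 in D298, and ended with fed D298 liver at 11.39 ± 0.13, and every neighbouring pair overlapped. For PFKL fed fat (9.59 ± 0.23 in D298 and 9.56 ± 0.27 in N298) came before fasted liver (9.34 ± 0.14 in N298), with fed liver last (8.42 ± 0.34 in N298), again with overlap at each step.

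Other genes of the pathway were taken from lists rather than for how they moved, 1 brightest probe set per gene. Of 22 further glycolytic genes 15 were measured, and HK2, ALDOA, PGAM1 and PKLR were among those not analysed here. In fat 5 of the 15 fell with fasting and 1 rose, beside 18.9% and 15.3% of the genes with 1 symbol, and the 6 called of 15 are a share near the 34.2% called of those genes. PFKM, PGAM2 and ENO3 could hardly be called in fat, with SEs of 0.46, 0.92 and 0.99. In fasted fat alone the signal ran from 24.5 to 6159.8 for PGAM2 and from 66.5 to 14059.1 for ENO3. That of LDHA, also uncalled, ran from 2741.6 to 11562.2 there. ALDOC, an aldolase, had 2560.4 at the lowest, 3887.5 at the median and 5456.8 at the highest in fasted fat, against 8585.7, 10523.2 and 13600.4 in fed fat, with no overlap, and fell by 1.45 ± 0.12 on the log2 scale (adjusted p = 3.14e-08). TPI1, the triose phosphate isomerase (-0.57), GAPDH, which oxidises the triose phosphate (-0.44), and ADPGK, which phosphorylates glucose with ADP (-0.32), also fell. So did PGAM5 (-0.61), which is counted in the list but is a mitochondrial phosphatase of the mutase family and not a glycolytic enzyme. ENO2, a second enolase, rose by 0.79 ± 0.18 while ENO1 fell. ENO2 was far dimmer than ENO1, with 62.6 to 159.6 in fasted fat and 31.3 to 92.1 in fed fat, so the size of its rise is uncertain. Of 5 GAPDH probe sets 3 were called lower in fat and none was called in liver.

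In liver 2 of the 15 rose and 1 fell, beside 4.09% and 3.1% of the genes with 1 symbol. LDHB, a lactate dehydrogenase subunit that joins lactate and pyruvate, had 15429.0, 22166.4 and 28527.7 in fasted liver, against 4678.6, 6459.5 and 8245.2 in fed liver, with no overlap. It rose by 1.79 ± 0.10 (adjusted p = 9.2e-11), more than any of the 9 genes, and gave 0.06 ± 0.06 in fat. LDHA, the other subunit, rose by 0.46 ± 0.09 in liver and gave an uncalled -0.38 ± 0.21 in fat. The phosphoglucomutase PGM2 fell by 0.80 ± 0.13 in liver.

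**Figure D5:**
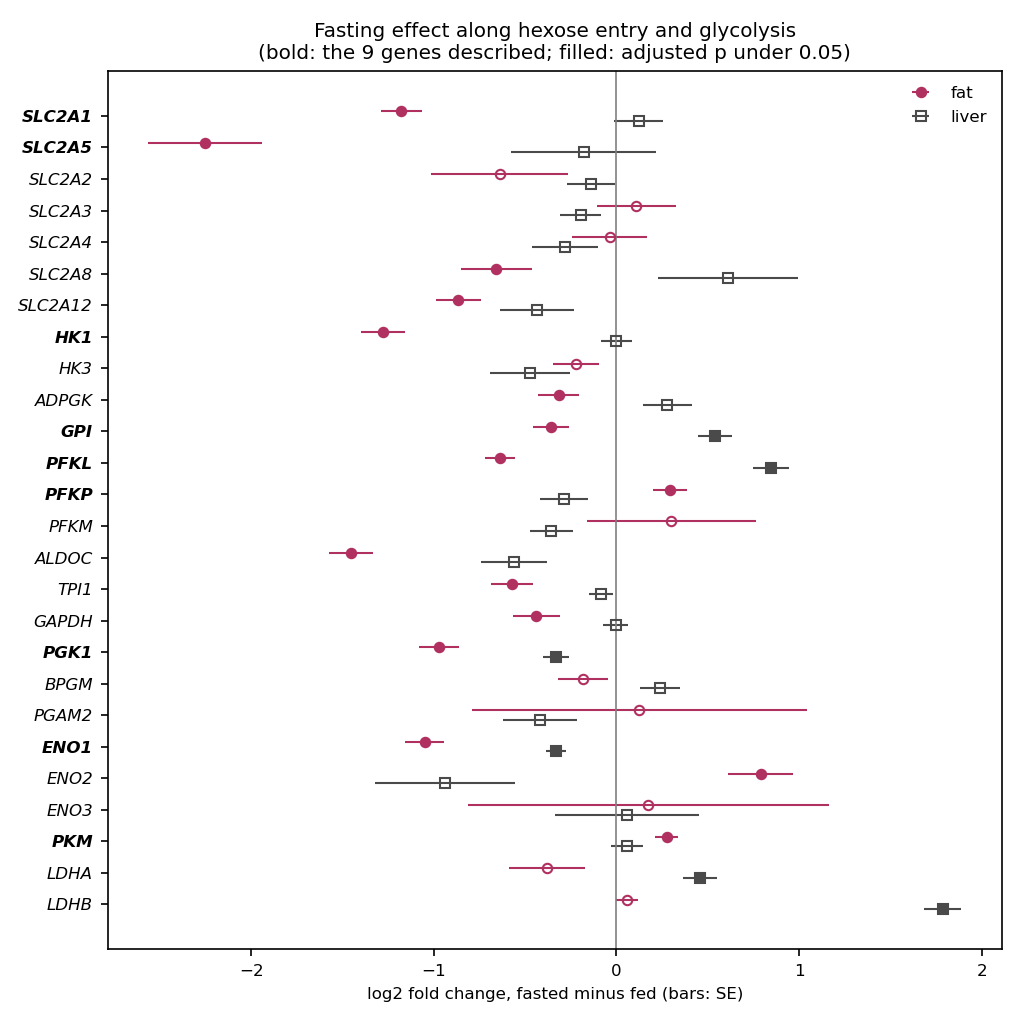
Log2 fold change, fasted minus fed (x axis; bars show the SE), in fat (circles) and liver (squares) for carriers and glycolytic enzymes from the top of the pathway to the bottom, the 9 genes described in bold and filled symbols for an adjusted p under 0.05. In fat the filled symbols lie left of 0 except PFKP (0.29), ENO2 (0.79) and PKM (0.28), and in liver LDHB lies farthest right (1.79). The open symbols of PFKM, PGAM2 and ENO3 in fat have wide errors (SE 0.46, 0.92 and 0.99).

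Of 19 further hexose carriers and enzymes of sugar entry, 13 were measured. In fat 4 fell and none rose, beside 18.9% and 15.3% of the genes with 1 symbol. Those that fell were the carriers SLC2A12 (-0.87 ± 0.13) and SLC2A8 (-0.66 ± 0.19), and GALK1 (-0.96 ± 0.15) and GALM (-0.48 ± 0.08), which bring galactose into the pathway. SLC2A4, the insulin-responsive glucose carrier of muscle and fat, had 3 probe sets that disagreed: the brightest gave -0.04 ± 0.21 in fat (adjusted p = 0.927), another -1.49 (adjusted p = 9.65e-06), and the third -0.49 without a call. No statement on SLC2A4 is therefore made. In liver 2 of the 13 rose and 1 fell, beside 4.09% and 3.1% of the genes with 1 symbol. PMM1, a phosphomannomutase, rose by 2.22 ± 0.29 and GALT, of galactose use, by 0.67 ± 0.11, while TKFC, which phosphorylates products of fructose breakdown, fell by 0.90 ± 0.14. SLC2A2, the main glucose carrier of hepatocytes, had 1270.8, 2205.9 and 3830.8 in fasted liver, against 1799.0, 2495.6 and 3861.0 in fed liver, and was not called (-0.14 ± 0.13).

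Of 24 regulators 14 were measured. In fat 1 rose and 2 fell, beside 15.3% and 18.9% of the genes with 1 symbol. In liver 0 rose and 1 fell, beside 4.09% and 3.1%. SREBF1, a transcription factor of lipid synthesis, fell in fat by 1.28 ± 0.26 (adjusted p = 0.000756) and gave an uncalled 0.48 ± 0.18 in liver; the difference between the tissues was called (-1.76 ± 0.31). HIF1A, a factor of hypoxia known to drive glycolytic genes, fell by 0.18 ± 0.06 in fat by its brightest probe set, and its other 3 probe sets were not called. The kinase AKT1 rose by 0.28 ± 0.07 in fat, and MYC fell by 0.67 ± 0.18 in liver.

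Likeness to other genes was measured by the Pearson correlation of log2 signal over the 24 arrays of a tissue, which share the feeding groups and the scaling, so it is a description only. In fat SLC2A1 was closest to PGD, an enzyme of the pentose phosphate path, and PSPH (r = 0.935 each), HK1 to FDPS (0.968), of isoprenoid synthesis, and ENO1 to BCKDHB (0.969) and the transketolase TKT (0.967). SLC2A5 was closest to PRDX6 (0.934) and PGD (0.927), and GPI to MID1IP1 (0.835) and TPI1 (0.821). PFKL was closest to AP2S1 and IFRD2 (0.926 each), and PGK1 to NNT (0.94) and ATP5G1 (0.934). The genes that rose were closest to others: PFKP to PLCD4 (0.723) and CD5L (0.71), and PKM to KHNYN (0.83) and ARSA (0.822). In liver PGK1 was closest to another member, ENO1 (0.873), GPI to NIPSNAP1 (0.89) and the citrate carrier SLC25A1 (0.882), and PFKL to LCAT (0.868) and the pyruvate carboxylase PC (0.827). ENO1 was closest to NPC2 (0.887) there, and PKM to CD163 (0.771), a gene of the macrophage markers. The closest genes of the rest were USP21 for SLC2A1 (0.717), MBOAT1 for SLC2A5 (0.793), SEPT8 for HK1 (0.774) and PDYN for PFKP (0.701). Among the members themselves in fat, HK1 and ENO1 had r = 0.913, and 0.574 once each group's mean was taken out. ENO1 and SLC2A5 had r = 0.89 and 0.587 in the same way. Other pairs kept little of their r: SLC2A1 and HK1 had 0.832 and 0.187, and PGK1 and ENO1 0.776 and 0.097. SLC2A1 and PGK1 went from 0.724 to -0.107. With group means taken out, the pairs in fat ran from -0.467 (PGK1 and PKM) to 0.716 (GPI and PGK1), so the members did not all vary together within groups. These values include the fat array of fed D298 gilt 1, which lay far below its group for SLC2A5, HK1 and ENO1. No r without it is given, so how far it carries them is not known. In the RefSeq gene table of the pig (Sscrofa11.1), used for the order of genes only, ENO1 and SLC2A5 lie on 1 chromosome with 2 protein-coding genes between them, CA6 and SLC2A7, neither of which was on the array under its symbol.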

How the data were processed

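The values are linear signal intensities as the authors deposited them, 1 for each probe set on each array, made with the affy package and MAS5, per the submitters' processing notes; versions and the genome build are not given in the sources used here. Of 24123 probe sets, 124 control probe sets were left out. Log2 was taken with nothing added and no filter on dim signal. Groups came from the labels.

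In each tissue a model of the 4 groups was fitted in R 4.3.3 with limma 3.58.1, using eBayes with trend and the replicate number as a block, since the series' design text states blocks. A model of both tissues took the gilt as random. For this, a liver and a fat array of equal genotype, feeding and number were taken as 1 gilt, which the labels do not state outright, and arrays so joined had a correlation of 0.0651. The fit without blocks, which needs no such join, changed no call of the 9 genes. Tests were 2-sided, adjusted by Benjamini-Hochberg over 23999 probe sets, and checked on simulated data. Residuals of the same number correlated little (median 0.0075 in liver and 0.017 in fat), and the numbers mark separate gilts.

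All 9 genes are reported in every group, and from the 3 further gene lists those that passed are named. The members and lists were chosen with earlier results of these data known. The gene IDs of 8 of the 9 were in the RefSeq table. The number of arrays limits the precision. There were 14 alternatives planned, and 4 added after seeing the data: leaving out the fat array of fed D298 gilt 1, and the endothelial, fibroblast or skeletal muscle marker mean as a covariate. Figures were drawn with Matplotlib 3.10.9 from tables made in pandas 2.3.3.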

Additional observations from a re-analysis of the deposited data

Results flagged for a closer look

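Within groups of 6 arrays, 8 of 80 sets of values had 1 array far below the other 5, by a gap ratio over 0.625. This ratio is the gap to the nearest array over the whole range, taken on log2 signals, while the signals below are linear. For normal values chance gives about 1 in 20 beyond this limit at either end, low or high. The 80 sets share arrays and so are not independent. Of the 8, 3 were of the fat array of fed D298 gilt 1: SLC2A5 at 183.0 (the others 1257.5 to 2263.4), HK1 at 2018.1 (3746.4 to 4599.8) and ENO1 at 5115.7 (7958.7 to 9768.5). On the liver array of the same group and number PFKL was 370.7 and GPI 2458.6, both below all fasted livers. The others were single arrays: SLC2A1 at 153.0 in fasted D298 fat gilt 5 (the others 272.6 to 366.6), SLC2A5 at 2.5 in fasted D298 liver gilt 2, HK1 at 432.3 in fed N298 liver gilt 6 (578.1 to 662.4), GPI at 1795.4 in fed N298 liver gilt 5 (2927.3 to 3685.0) and the dimmer PKM probe set at 9.9 in fed D298 liver gilt 2.

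The response to fasting differed between fat and liver, by the test of the difference itself, for SLC2A1 (-1.30), SLC2A5 (-2.07), HK1 (-1.28), GPI (-0.90), PFKL (-1.48), PFKP (0.58), PGK1 (-0.64), ENO1 (-0.72) and the dimmer PKM probe set (1.26, not called without replicate 4), as log2 changes in fat minus those in liver.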

How the results depend on the processing

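Of 1395 recomputed values of single probe sets, 1364 stayed on their side of the threshold, in the same direction where called, 19 lost a call, 11 gained one and 1 reversed: PGK1, fat minus liver in fasted gilts, at 0.13 (adjusted p = 0.185) after quantile normalization. The genes called higher with fasting in fat numbered 1 instead of 2 after quantile normalization, after median-centring and with the endothelial covariate, and 0 with the fibroblast covariate; these covariates left 1338 and 3634 probe sets called. Those genes ranged from 1 to 2 without single replicates. Median-centring left 1 gene called lower in liver instead of 2 and 0 instead of 1 with a higher response in fat than in liver. Probe sets called in liver numbered 667 to 901 without single replicates. Without the replicate block 1 probe set, no member, was called for genotype in liver and 0 in fat; without single replicates 0 to 2 were called for genotype in liver and 0 to 4 for the interaction in fat, and 5 for that interaction without the fat array of fed D298 gilt 1. The replicate block changed no call of the 9 genes. Among the brighter probe sets alone, of which fewer were tested, 10020 and 9738 differed between tissues in fasted and fed gilts. Median-centring moved the share of called probe sets that were higher to 68.1% in liver, against 50.8% as deposited, to 43.2% against 60.1% in fat, and to 29.0% against 55.1% for the difference of responses. For fat minus liver that share was 53.3% after quantile normalization and 44.9% after centring against 66.7% in fasted gilts, and 54.5% and 47.4% against 64.5% in fed gilts. The causes were not tested. Dim signals, as of SLC2A5 in liver and the second PKM probe set, limit what can be seen.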
